A study of Mus musculus with 6 samples.

Results

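The genes described here are 10 genes of hepatic stellate cells, chosen by name: 5 of the quiescent cell (Lrat, Reln, Hgf, Ecm1 and Ngfr) and 5 of contractile and mural cells (Des, Acta2, Tagln, Pdgfrb and Rgs5). All 10 were found among the 53546 gene names of the count files, and all 10 passed the filter on low counts. The libraries came from non-parenchymal cells of the livers of male mice, 3 wild type and 3 SRA-/-, which lack scavenger receptor A, encoded by Msr1. Every mouse had received acetaminophen at 400 mg/kg by intraperitoneal injection, and cells were taken 6 h later. Mice without acetaminophen were not analysed here, so no value below is a response to the drug. The sources used here name neither the strain, nor the age, nor the disrupted exon. Values by library follow the order of replicates 1, 2 and 3.

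Hepatic stellate cells are the pericytes of the liver sinusoid. They lie between the sinusoidal endothelium and the hepatocytes, store vitamin A as retinyl esters in lipid droplets and secrete growth factors for hepatocytes. After injury they can lose the vitamin A store, take on contractile filaments such as smooth muscle actin and deposit matrix, a change called activation. Smooth muscle cells of vessels and portal fibroblasts share part of the contractile programme, so Acta2, Tagln, Des, Pdgfrb and Rgs5 are not exclusive to stellate cells. Neither is Reln, which lymphatic endothelium also makes. Whether the other quiescent genes, Hgf and Ecm1 among them, came from stellate cells alone was not tested.

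Promoter windows, the 250 bases before the annotated start, were found for 8 of the 10 genes in a RefSeq table of build GRCm38.p6, which is not the build of the counts. Those of 4 genes are shown because of the values below: Ecm1 had the highest level per length, Acta2 was among the lowest, and Ngfr and Des were the pair with the second highest Pearson correlation. The windows lie at chr3:95739570-95739819 on the minus strand, chr19:34255374-34255623 on the minus strand, chr11:95587699-95587948 on the minus strand and chr1:75360042-75360291 on the plus strand. Capitals mark matches on either strand to TATAAA, to GGGCGG (the GC box), to CAGCTG (an E-box) or to GATAAG.
Ecm1: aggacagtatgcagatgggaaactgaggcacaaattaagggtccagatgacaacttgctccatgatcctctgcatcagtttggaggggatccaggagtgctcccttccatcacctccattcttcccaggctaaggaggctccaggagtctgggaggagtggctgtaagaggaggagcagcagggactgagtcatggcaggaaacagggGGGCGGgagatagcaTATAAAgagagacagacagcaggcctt
Acta2: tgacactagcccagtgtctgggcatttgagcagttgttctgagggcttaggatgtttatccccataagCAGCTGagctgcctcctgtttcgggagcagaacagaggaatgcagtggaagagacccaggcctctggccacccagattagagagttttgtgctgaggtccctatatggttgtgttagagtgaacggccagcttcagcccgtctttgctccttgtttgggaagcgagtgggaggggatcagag
Ngfr: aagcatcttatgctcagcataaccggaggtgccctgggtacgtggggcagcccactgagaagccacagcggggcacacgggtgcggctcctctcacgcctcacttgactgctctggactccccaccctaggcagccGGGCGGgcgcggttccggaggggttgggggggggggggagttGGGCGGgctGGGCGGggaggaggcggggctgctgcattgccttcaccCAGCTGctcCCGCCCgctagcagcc
Des: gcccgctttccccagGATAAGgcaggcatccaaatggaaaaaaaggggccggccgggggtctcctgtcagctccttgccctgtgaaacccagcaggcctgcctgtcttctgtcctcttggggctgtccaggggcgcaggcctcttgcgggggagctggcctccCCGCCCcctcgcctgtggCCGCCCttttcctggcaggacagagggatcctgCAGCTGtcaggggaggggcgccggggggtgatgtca
Ngfr and Des both held GGGCGG, with 4 and 2 matches, and both held CAGCTG, at 25 and 36 bases before the start. Among 32851 windows of this length in the table, 32.7% held GGGCGG, 13% held CAGCTG, 12.4% held TATAAA and 6.55% held GATAAG. The Ecm1 window alone among these 4 had TATAAA, 27 bases before the start, and it had 1 CpG, against 16 in Ngfr, 10 in Des, 4 in Acta2 and a median of 6 over all windows. None of the 4 held a strict CArG box (CC, 6 bases of A or T, GG), the element named for serum response factor. Of all windows, 1.47% held one. Near matches were not counted, and the Acta2 window holds ccctatatgg and ccttgtttgg, each 1 base from the strict form. The lack of a strict match therefore does not show that the Acta2 window lacks such elements. A match describes letters and is not evidence of binding.

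Gene counts summed to between 23757203 and 44003902 per library, and levels are given as CPM, TMM-scaled counts relative to library size. A floor of 6 counts (3 fragments, each mate being counted) lay at 0.136 to 0.253 CPM. Msr1, which checks the labels only where reads fall in the disrupted part, left reads in every library: the wild type ones held 1123, 1936 and 3838 counts, the SRA-/- ones 1848, 1005 and 925. Its mean was 75.2 ± 37.6 CPM in wild type against 38.6 ± 4.44 CPM (SD, n = 3 each), so these whole-gene counts do not check the labels. Hepatocyte markers took 7.76%, 6.47% and 3.15% of the wild type counts, and 6.01%, 5.15% and 9.99% of the SRA-/- counts. Markers of pancreatic acinar cells took 0.0382% to 0.111% of the counts in 4 libraries and 0.000337% to 0.000566% in the other two, SRA-/- replicates 1 and 3. These are bulk libraries, and fewer stellate cells cannot be told apart from less RNA per stellate cell.

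The quiescent genes were plainly present in every library. Lrat, the acyltransferase that esterifies retinol for storage (chromosome 3, 82799886 to 82811280, mm39), stood at 18.0, 19.8 and 24.2 CPM in the wild type libraries, and at 19.9, 21.5 and 12.1 CPM in the SRA-/- libraries. The SRA-/- libraries held both values inside the wild type range and, in replicate 3, the lowest of all 6. Reln, which encodes the secreted glycoprotein reelin (chromosome 5, 22089452 to 22549700), had 279, 356 and 299 CPM in wild type and 375, 428 and 236 CPM in SRA-/- libraries. Its groups overlapped, with SRA-/- replicates 2 and 1 highest and SRA-/- replicate 3 lowest.

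Hgf, the hepatocyte growth factor that acts on hepatocytes through the receptor Met (chromosome 5, 16758493 to 16825150), had 78.1, 123 and 119 CPM in wild type and 81.4, 82.0 and 74.6 CPM in SRA-/- libraries. The SRA-/- libraries lay close together, at 79.3 ± 4.13 CPM (SD, n = 3), and wild type replicate 1 lay among them, while wild type replicates 2 and 3 lay well above. Ecm1, a secreted matrix protein (chromosome 3, 95641459 to 95646881), had 243, 422 and 322 CPM in wild type and 315, 297 and 186 CPM in SRA-/- libraries. Ngfr, the p75 neurotrophin receptor (chromosome 11, 95459644 to 95478561), had 7.22, 10.4 and 11.4 CPM in wild type and 13.9, 6.91 and 6.63 CPM in SRA-/- libraries. SRA-/- replicate 1 was the highest of all 6 for Ngfr, and the other SRA-/- libraries were the lowest.

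Among the contractile and mural genes, the defining smooth muscle transcripts were scarce. Acta2, alpha smooth muscle actin (chromosome 19, 34218490 to 34232990), was counted 40, 51 and 23 times in the wild type libraries, against 68, 51 and 30 times in the SRA-/- libraries, or 1.33 ± 0.63 against 1.52 ± 0.17 CPM (SD, n = 3 each). Wild type replicate 3 was lowest for it, at 0.68 CPM, although that library was the highest for Lrat and Rgs5. Reads that align equally well to several actin genes were not counted, which can lower Acta2. Tagln, the actin-binding protein transgelin (chromosome 9, 45840917 to 45847356), was counted 37, 35 and 42 times in the wild type libraries, against 62, 36 and 14 times in the SRA-/- libraries. Of its 1988 exon bases 1349 (67.9%) are shared with exons of Pcsk7 and Gm48529 on the other strand. Reads there fell to no gene, because counting ignored strand and left out reads over several genes, so the level of Tagln is understated.

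Des, the intermediate filament desmin that marks rodent stellate cells (chromosome 1, 75336973 to 75345223), had 8.04, 9.53 and 11.9 CPM in wild type and 14.1, 8.92 and 6.58 CPM in SRA-/- libraries, so that SRA-/- libraries were both the highest and the lowest. Pdgfrb, the beta receptor for platelet-derived growth factor (chromosome 18, 61178222 to 61218133), had 18.6, 26.8 and 24.96 CPM in wild type and 23.5, 20.7 and 13.5 CPM in SRA-/- libraries. Rgs5, which speeds the shut-off of G protein signals in pericytes and stellate cells (chromosome 1, 169483070 to 169523382), had 70.3, 129 and 165 CPM in wild type and 111, 118 and 72.4 CPM in SRA-/- libraries, with wild type replicate 1 and SRA-/- replicate 3 well below the others.

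**Figure D1:**
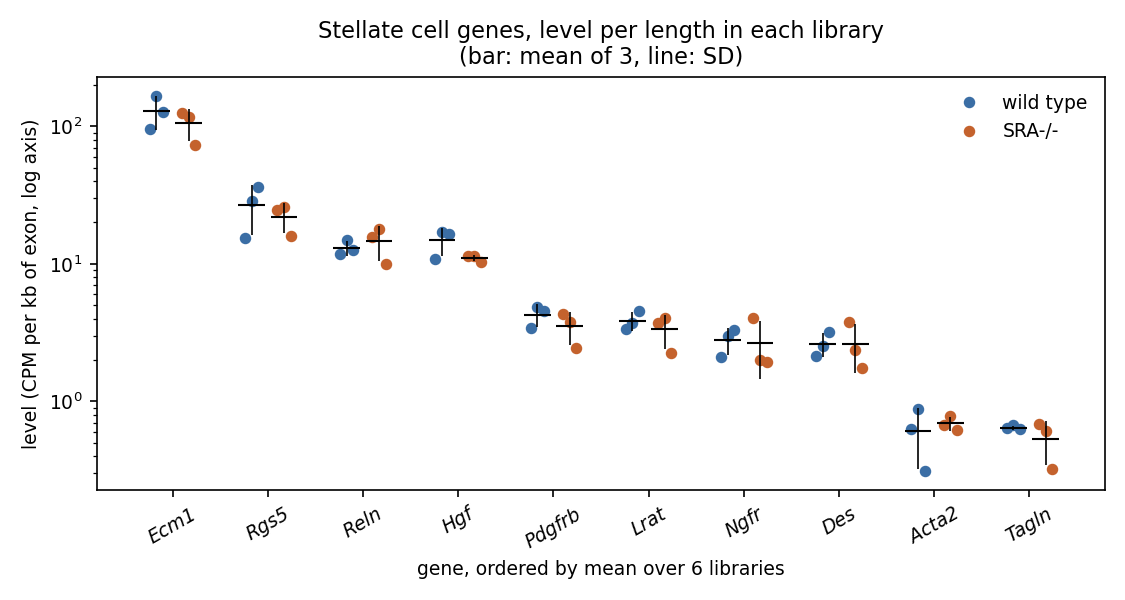
Level of each stellate cell gene per length, in CPM per kb of exon on a log axis, in 3 wild type (blue) and 3 SRA-/- (orange) libraries, with the mean (bar) and SD (line) of each group. Ecm1 is highest, at a mean of 118 CPM per kb, Acta2 and Tagln are lowest, at 0.65 and 0.59, and for every gene the groups overlap.

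Levels of different genes were compared per kb of exon. Ecm1 stood first, at 118 ± 31.6 CPM per kb (SD over 6 libraries), followed by Rgs5 at 24.4 ± 7.90, and their ranges did not meet. Reln (13.8 ± 2.97) and Hgf (12.9 ± 3.05) could not be ordered, since Reln was higher in 3 of 6 libraries. Next came Pdgfrb at 3.90 ± 0.89, below Hgf without overlap, then Lrat at 3.60 ± 0.76, Ngfr at 2.73 ± 0.86 and Des at 2.62 ± 0.73, whose ranges ran into one another. Acta2, at 0.65 ± 0.19, was below Des in 6 of 6 libraries with no overlap of ranges. Tagln, at 0.59 ± 0.13, was below Acta2 in 3 of 6 libraries, but over its 639 unshared exon bases it stood at 1.83 ± 0.42 CPM per kb.

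Per length, Lrat exceeded Acta2 in each library, by a ratio of 3.64 to 14.6 with a median of 5.28. Wild type replicate 3 held the highest ratio and SRA-/- replicate 3 the lowest. The other libraries lay between 4.20 and 5.52, with the genotypes mixed. Wild type replicate 3 stood apart mainly through its low Acta2, 0.31 CPM per kb against 0.62 to 0.88 in the rest. Its Lrat was 4.52 CPM per kb, against 4.01 in the next highest library. Rgs5 exceeded Acta2 per length by a ratio of 24.7 to 117, again with wild type replicate 3 at the top.

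Most of the genes varied together across the 6 libraries, with a low library in each genotype. In SRA-/- replicate 3, 8 of the 10 had their lowest value, the exceptions being Acta2 and Rgs5. The share of all tested genes lowest in that library was not computed, so this count does not single out stellate cell genes. In wild type replicate 1, 2 of 10 (Acta2 and Tagln) exceeded their mean over the 6 libraries, against 9 in wild type replicate 2, 8 in wild type replicate 3, 9 in SRA-/- replicate 1 and 6 in SRA-/- replicate 2. The median of the 10 centred log2 CPM values was -0.21, 0.25 and 0.29 for wild type, and 0.15, 0.06 and -0.54 for SRA-/-. The quiescent and the contractile and mural genes gave the same order of extremes, SRA-/- replicate 3 being lowest (-0.45 and -0.55) and wild type replicate 1 next (-0.22 and -0.17).

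**Figure D2:**
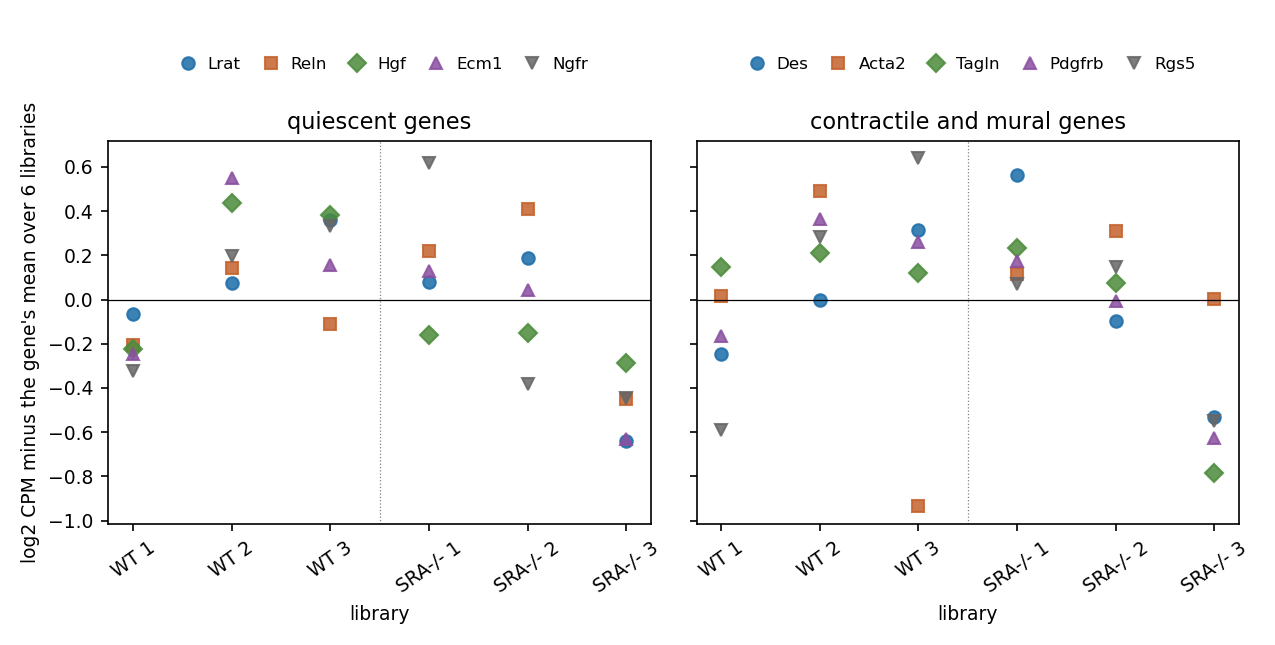
Log2 CPM of each stellate cell gene minus its own mean over 6 libraries (vertical axis) in each library (horizontal axis, wild type left and SRA-/- right of the dotted line). In SRA-/- replicate 3 all genes except Acta2 lie below 0, from -0.29 (Hgf) to -0.78 (Tagln), and Acta2 in wild type replicate 3 is the lowest single value.

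Acta2 followed this pattern less closely. Of 36 pairs among the other 9 genes, all had Pearson correlations above 0 in log2 CPM over the 6 libraries, with a median of 0.70, whereas the 9 pairs with Acta2 had a median of -0.25 with 3 above 0. By rank (Spearman) the pairs with Acta2 had a median of 0.37 with 8 of 9 above 0, Lrat at -0.03 being the exception. The other 36 pairs had a median of 0.60 by rank, all above 0. Acta2 was lowest in wild type replicate 3 (23 counts, -0.93 from its mean), and correlations without that library were not computed. Ecm1 and Pdgfrb ran most closely together (r = 0.97), then Ngfr and Des (r = 0.93), whose promoter windows are printed above. These are descriptions over 6 libraries that share depth and cell makeup for all genes. Pairs of other genes were not computed for comparison, so the correlations do not single out stellate cell genes.

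The lower values of stellate genes went with more hepatocyte RNA. Hepatocyte markers (15 of 15 detected in every library) reached a median centred log2 CPM of 0.74 for SRA-/- replicate 3 and 0.52 for wild type replicate 1, the libraries lowest in stellate genes. It was -0.97 in wild type replicate 3 and between -0.22 and -0.02 in the other 3. Liver endothelial markers also had their lowest medians, -0.28 and -0.25, in those libraries. Pancreatic acinar RNA was lowest in SRA-/- replicate 1 (5.42 CPM summed), with 9 of 10 stellate genes above their means, and in SRA-/- replicate 3 (3.63 CPM), with 1. The part of hepatocyte RNA in the values of stellate genes was not tested beyond the covariate fit given below.

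No stellate cell gene passed the test between genotypes. By edgeR's quasi-likelihood test over 20541 genes, 0 of 10 changed, where 10 genes (0.0487%, of which 0.0341% higher and 0.0146% lower in SRA-/-) did over the whole table, and the adjusted p was 0.9999 for each of the 10. DESeq2 and limma-voom with quality weights likewise called 0 of 10, against 0.251% and 0.482% of all genes. The quality weights were uneven, 4.83 for wild type replicate 2 against 0.416 to 1.45 for the others, so the voom values lean on that library. At an unadjusted p under 0.05 edgeR gave 0 of 10, against 3.22% of all genes, and 0 of 10 had groups that did not overlap, against 7.3%. The log2 fold change of SRA-/- over wild type was below 0 for 7 of the 10, with a median of -0.23, while over all tested genes 48.3% lay above 0 and the median was -0.01.

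Hgf came nearest to a difference. Hgf had a log2 fold change of -0.43 ± 0.21 (SE), with a 95% interval of -0.89 to 0.035, and edgeR gave 0.0664 as its unadjusted p. Limma-voom with quality weights gave Hgf 0.00264 unadjusted and 0.149 as the adjusted p. Its weight was largest (4.83) for wild type replicate 2, where Hgf was highest. It was smallest (0.416) for wild type replicate 1, the wild type library that lay among the SRA-/- ones. By edgeR the log2 fold change of Hgf was -0.60 without wild type replicate 1 and -0.31 without wild type replicate 2.

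For the other quiescent genes the fold changes were smaller than their intervals. Lrat had -0.21 ± 0.24 (95% interval -0.75 to 0.33), Ecm1 -0.31 ± 0.28 (-0.94 to 0.32), Ngfr -0.07 ± 0.32 (-0.79 to 0.64) and Reln, the 1 quiescent gene above 0, 0.15 ± 0.26 (-0.42 to 0.73). Without SRA-/- replicate 3 the log2 fold change of Lrat was -0.0015, so its lower mean in SRA-/- libraries came from that library. Ecm1 was -0.087 without wild type replicate 2, its highest library, and -0.60 by limma-voom, which gives that library the most weight (unadjusted p 0.0207, adjusted p 0.332).

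The contractile and mural genes gave the same picture. Pdgfrb had -0.28 ± 0.24 (95% interval -0.82 to 0.26), Rgs5 -0.27 ± 0.31 (-0.97 to 0.42) and Des 0.01 ± 0.29 (-0.65 to 0.67). Intervals of the scarce genes were wider, with Acta2 at 0.20 ± 0.41 (-0.72 to 1.12) and Tagln at -0.25 ± 0.37 (-1.09 to 0.59). A ratio of up to 2.17 in Acta2 is therefore within what these libraries allow. Without SRA-/- replicate 3 the log2 fold changes of Tagln and Pdgfrb were -0.0046 and -0.085, and without wild type replicate 3 that of Rgs5 was 0.0095 and that of Acta2 was -0.12.

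**Figure D3:**
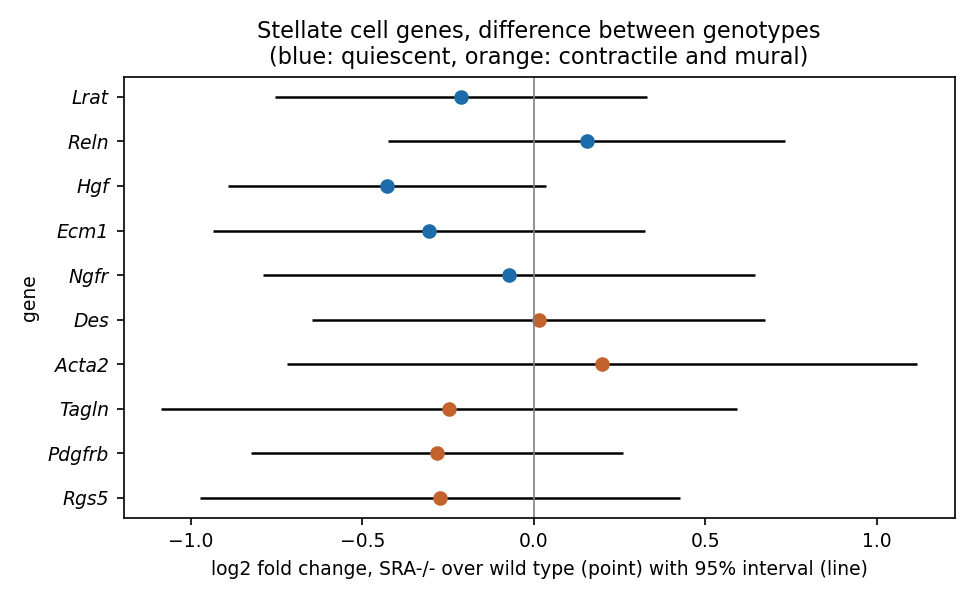
Log2 fold change of SRA-/- over wild type for each stellate cell gene by edgeR (point) with its 95% interval (line). All 10 intervals include 0, that of Hgf (-0.89 to 0.035) only just, and those of Acta2 and Tagln are widest.

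Further genes of the stellate cell programme were taken from a list of 25 identity genes, all of them tested. None changed by edgeR and none had an unadjusted p under 0.05, with 12 above 0, 13 below and a median log2 fold change of -0.01. The list was also lowest in SRA-/- replicate 3 (median centred log2 CPM -0.50) and wild type replicate 1 (-0.32). Gata4, a transcription factor of quiescent stellate cells that endothelium also makes, had the next to smallest p in this list, at a log2 fold change of -0.39 ± 0.19 (SE, unadjusted p 0.0734). Nes, which encodes the filament nestin, had the smallest (0.0530). It had 19.9, 67.8 and 109 CPM in wild type, against 41.2, 25.7 and 25.7 CPM in SRA-/- libraries, so the groups overlapped and 2 wild type libraries made the mean difference. Its log2 fold change of -1.08 ± 0.49 became -0.51 without wild type replicate 3, and -0.48 with hepatocyte content as a covariate. Of the 25, 19 lay above 0 without SRA-/- replicate 3 and 6 without SRA-/- replicate 2.

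Genes of fibrogenic activation were measured in every library. Of 24 tested, 0 changed by edgeR, 9 lay above 0 and the median log2 fold change was -0.05. Without wild type replicate 3, 14 lay above 0 (median 0.05), as did 14 with hepatocyte content as a covariate (0.09), and without wild type replicate 1 the median was -0.27. Collagen I and III genes were present, with Col1a1 at 4.20 ± 1.08 and Col3a1 at 2.96 ± 0.64 CPM per kb (SD over 6 libraries), near the level of Lrat. These 2 were chosen after their values were seen. Loxl2, a lysyl oxidase that cross-links collagen, was the 1 gene of the list with an unadjusted p under 0.05 (0.00909 by edgeR, adjusted p 0.9999). It had 9.45, 12.3 and 13.0 CPM in wild type and 7.01, 8.05 and 6.54 CPM in SRA-/- libraries, the groups not overlapping, as for 3.33% of all tested genes in this direction. Ccn1, a matricellular protein induced early in stressed cells, had the next smallest p (0.0709), with 157 ± 31.2 against 209 ± 3.21 CPM (SD, n = 3 each).

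Smooth muscle and pericyte genes beyond the 5 lay mostly below 0. Of 20 tested, 18 had log2 fold changes below 0 and the median was -0.28, but 0 changed by edgeR and 0 had an unadjusted p under 0.05. The smallest p in the list belonged to Itga8, an integrin chain of stellate and smooth muscle cells (-0.42 ± 0.23, unadjusted p 0.0944), and Myh11, the smooth muscle myosin heavy chain (-0.43 ± 0.27, unadjusted p 0.138). Liver endothelial markers also lay below 0, 12 of 12 with a median of -0.22, and their part in the result was not tested. The smooth muscle list lay nearer 0 without wild type replicate 3 (12 of 20 below 0, median -0.08) and without SRA-/- replicate 3 (14 of 20, median -0.15). With hepatocyte content as a covariate it also lay nearer 0 (14 of 20, median -0.08). Its median lay further from 0 without SRA-/- replicate 1 (20 of 20 below 0, median -0.39) and without wild type replicate 1 (17 of 20, median -0.32). Genes of serum response factor and its cofactors, which drive contractile transcription, split evenly, with 8 of 16 above 0 and 0 changed. Srf itself was at 54.1 CPM in wild type and 62.4 CPM in SRA-/- libraries on average, with an unadjusted p of 0.274 by edgeR.

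**Figure D4:**
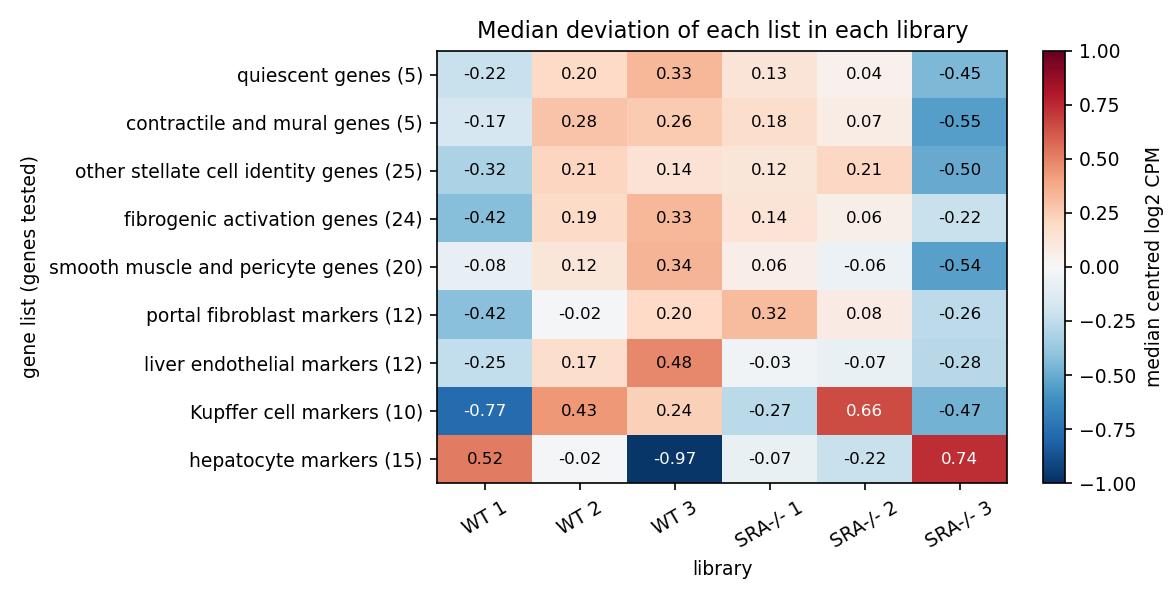
Median centred log2 CPM of 9 gene lists (rows, with the number of genes tested) in each library (columns), on a colour scale from -1 to 1. The stellate, smooth muscle and endothelial rows are lowest in SRA-/- replicate 3 or wild type replicate 1, where the hepatocyte row is highest (0.74 and 0.52).

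Partners of the signalling members were then examined, ligands first. Among 9 genes of PDGF signalling 0 changed and 6 lay above 0. Pdgfb, which encodes the main ligand of the beta receptor, had the smallest p in this list, with means of 6.17 and 8.13 CPM (log2 fold change 0.40 ± 0.28, unadjusted p 0.192 by edgeR). Of 11 genes that activate, restrain or receive HGF, 0 changed and 7 lay above 0. Hgfac, the hepatocyte-made protease that activates HGF, had a log2 fold change of 0.33 ± 0.28. The receptor gene Met, named after its values were seen, had 0.13 ± 0.27.

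Receptors for reelin were low beside Reln. Vldlr stood at 0.08 ± 0.04 and Lrp8 at 0.35 ± 0.09 CPM per kb (SD over 6 libraries), against 13.8 for Reln. These levels were picked out after they were seen. Of 7 reelin receptor and adaptor genes 0 changed and 4 lay above 0. Of 13 genes of neurotrophins and their receptors 0 changed and 8 lay above 0. Of 18 genes of TGF-beta signalling 0 changed and 7 lay above 0, and of 7 relatives of Rgs5 that were tested 0 changed and 2 lay above 0. In each of these 6 lists the majority turned when 1 library was left out. Without wild type replicate 1, 3 of 9 PDGF genes, 2 of 7 reelin genes and 4 of 13 neurotrophin genes lay above 0, the last count also without SRA-/- replicate 1 or 2. Without wild type replicate 3, 5 of 11 HGF genes, 12 of 18 TGF-beta genes and 5 of 7 relatives of Rgs5 did. These counts therefore give no direction.

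Retinoid genes held the largest difference among the lists of stellate cell function. Cyp26b1, an enzyme that breaks down retinoic acid and is itself induced by it (chromosome 6, 84548396 to 84570890), had 47.8, 42.0 and 71.8 CPM in wild type, against 172, 157 and 82.6 CPM in SRA-/- libraries. Each SRA-/- library lay above each wild type library, as for 3.97% of all tested genes. Its log2 fold change by edgeR was 1.35 ± 0.31 (SE; unadjusted p 0.0015, adjusted p 0.675). DESeq2 gave Cyp26b1 an adjusted p of 0.0107 and limma-voom with quality weights 0.0347 (0.0485 with robust moderation), so the call depended on the tool. Over all alternatives the log2 fold change ran from 1.15 without SRA-/- replicate 1 to 1.61 without wild type replicate 3.

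Cyp26b1 belongs to a retinoid list without Lrat. Of 20 tested, 16 lay above 0, with a median log2 fold change of 0.12, 0 changed by edgeR and 3 had an unadjusted p under 0.05. Hepatocyte markers also lay mostly above 0 (12 of 15, median 0.21). Without SRA-/- replicate 3, 4 of 15 hepatocyte markers and 17 of 20 retinoid genes lay above 0. With hepatocyte content as a covariate 15 of 20 retinoid genes lay above 0, with a median of 0.13. By limma-voom 13 of 20 did, and with library totals alone 14 of 20. The part of hepatocyte RNA in these counts was not tested further. Dgat1, an acyltransferase that can also esterify retinol, had 52.0, 56.5 and 50.8 CPM in wild type and 71.3, 65.6 and 75.4 CPM in SRA-/- libraries (log2 fold change 0.42 ± 0.16, unadjusted p 0.0254 by edgeR). Plin2, a coat protein of lipid droplets, averaged 449 ± 78.5 CPM in wild type and 686 ± 59.7 CPM in SRA-/- libraries (SD, n = 3 each; unadjusted p 0.0258 by edgeR). Plin2 was named after its values were seen. Dgat1, Plin2 and Cyp26b1 are made by other liver cells as well, and the cell of origin was not tested.

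**Figure D5:**
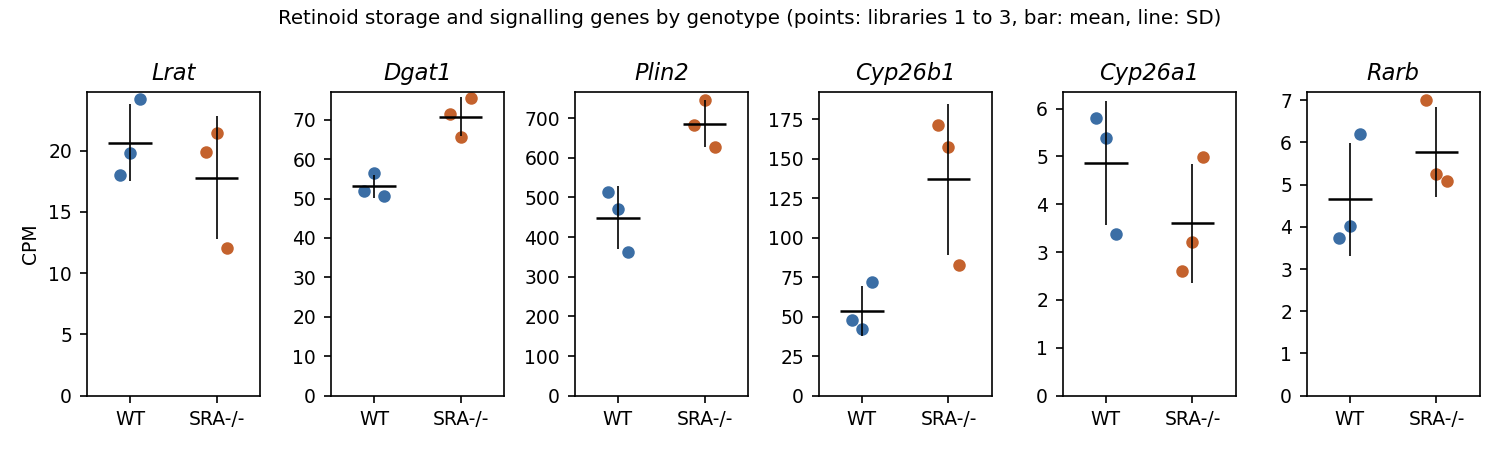
CPM of 6 retinoid storage and signalling genes in wild type and SRA-/- libraries (points), with the mean (bar) and SD (line) of 3 libraries. Cyp26b1 and Dgat1 are among the 4 of 20 retinoid genes that are higher in every SRA-/- library, as are 3.97% of all tested genes. Lrat overlaps (18.0 to 24.2 CPM in wild type, 12.1 to 21.5 in SRA-/- libraries).

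Genes that tracked the stellate cell genes across the 6 libraries were sought among 9944 others with a mean of at least 5 CPM. Nearest to the mean profile of the quiescent genes were Spsb1 (r = 0.995), Impdh2, Ctbp2, Ano8 and Golm1 (r = 0.981). Spsb1 had 12.4, 18.3 and 18.7 CPM in wild type and 17.4, 15.5 and 10.3 CPM in SRA-/- libraries, with the same low pair as Lrat and Ecm1. Nearest to the contractile and mural genes were Glis3 (r = 0.983), Rpl37a, Col14a1, Scarf2 and Tmem106a (r = 0.952). Col14a1, a fibril-associated collagen, averaged 149 CPM in wild type and 138 CPM in SRA-/- libraries. These correlations rest on 6 libraries, picked as the highest of many candidates, and describe likeness in level only.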

How the data were processed

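RNA of liver non-parenchymal cells was sequenced from 3 wild type and 3 SRA-/- mice, grouped by the sample titles. Per the labels' protocols, total RNA was depleted of ribosomal RNA and made into libraries with a KAPA kit. The submitters' processing notes name STAR (version not given in the sources used here), featureCounts and build mm39. The authors deposited raw counts, which per the file headers featureCounts 2.0.2 made from GENCODE vM26 exons, summed by gene name and ignoring strand. Read pairs were not requested, so each mate was counted: 68.5% to 71.9% of counts from 1 to 4 were even, and floors are 6 counts. Reads over several genes or several places were not counted under the header's settings.

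Tests used edgeR 4.0.16 in R 4.3.3 (filterByExpr, TMM, glmQLFit robust, glmQLFTest on group alone), over 20541 genes, with Benjamini-Hochberg adjustment and a threshold of 0.05. CPM are on the TMM scale. Levels per kb divide CPM by the exon length in the files. Centred values are log2 CPM with a prior count of 2. Standard errors were derived from each F statistic, and 95% intervals from the t quantile of each gene's degrees of freedom. With 3 against 3 libraries p-values weigh the difference between genotypes against the spread between samples, moderated over genes. The titles call the samples biological replicates. The procedure was tested on simulated data.

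Alternatives were DESeq2 1.42.0, limma-voom 3.58.1 with quality weights, other normalizations and filters, removal of hepatocyte, pancreatic and mitochondrial genes, the replicate number as a block and each library left out. Hepatocyte content as a covariate and robust moderation in limma-voom were added after seeing the data. The members and lists were chosen with earlier results of these data known. Named genes are the members, at most 2 of each list by p and, for each member group, the 5 genes nearest in profile. Others are said to have been named after their values were seen. Some that the rule named, and some withheld items, are not reported here. Lists carry counts and medians only, with no set test. Promoter windows come from RefSeq, build GRCm38.p6. Figures were drawn with matplotlib 3.10.9.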

Additional observations from a re-analysis of the deposited data

How the results depend on the processing

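The count of 0 stellate cell genes changed of 10 held under all 16 alternatives, the lowest adjusted p being 0.149 (Hgf, limma-voom). Hgf, Lrat, Ecm1, Tagln and Pdgfrb kept log2 fold changes below 0 in each. Signs turned for the other 5 genes, with no call: Des was -0.0068 with library totals alone, -0.041 with the replicate block and -0.34 to 0.23 with a library left out. Ngfr was 0.073 with the hepatocyte covariate and -0.51 to 0.11 with a library left out. By limma-voom Reln was -0.055 and Acta2 -0.17, and with a library left out Reln ran from -0.025 to 0.37, Acta2 from -0.12 to 0.57 and Rgs5 from -0.54 to 0.0095. Fyn, an adaptor kinase of reelin signalling, turned from -0.27 to 0.023 with the hepatocyte covariate and ran from -0.52 to 0.089 with a library left out. Without SRA-/- replicate 3 the median of the contractile and mural genes moved from -0.25 to -0.0046, and with the hepatocyte covariate it was near 0.

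Over all genes, 10 were called, against 32 with no filter on low counts, 60 by DESeq2, 99 by limma-voom (75 with its robust moderation), 5 with the replicate block and 3 to 40 with a library left out (3 without SRA-/- replicate 3, 40 without SRA-/- replicate 2). Samples with the same replicate number did not deviate together (correlations -0.29, -0.14 and -0.13 for replicates 1, 2 and 3), so the numbers were not taken as pairs. The cause of these shifts was not tested. Depth limits Acta2 and Tagln, with 14 to 68 counts per library.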

Other observations

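Markers of portal fibroblasts and mesothelial cells, the other mesenchymal and surface cells that such a fraction can hold, were counted in every library. Of 8 mesothelial markers, 1 had no counts in SRA-/- replicate 3. The mesothelial marker Wt1 was also in the list of stellate cell identity genes, and the cell of origin of these markers was not tested. Of 12 portal fibroblast markers 8 lay above 0 in SRA-/- over wild type, with a median log2 fold change of 0.17 that was -0.02 without wild type replicate 1 and -0.03 without SRA-/- replicate 1 (6 of 12 above 0 in each case), and 0 changed by edgeR, 1 having an unadjusted p under 0.05. That was Pi16, a marker of adventitial fibroblasts, counted 47, 53 and 85 times in wild type, against 181, 78 and 100 times in SRA-/- libraries. After scaling Pi16 was higher in each SRA-/- library, as were 3.97% of all tested genes (log2 fold change 0.85 ± 0.31, unadjusted p 0.0234 by edgeR, adjusted p 0.9999). Among the 12 portal fibroblast markers the groups did not overlap for 2 that were higher and 1 that was lower in SRA-/- libraries. Of 7 mesothelial markers that were tested 7 lay above 0 with 0 changed, led by Upk3b, a uroplakin of mesothelium (0.80 ± 0.32, unadjusted p 0.0324 by edgeR). Their median log2 fold change of 0.34 was 0.11 without wild type replicate 2, with 5 of 7 above 0. Without SRA-/- replicate 1, 6 of 7 lay above 0 (median 0.19). The mesothelial markers summed to 7.44 to 14.8 CPM per library, with SRA-/- replicate 1 highest. The 12 portal fibroblast markers summed to 74.1 to 149 CPM. The 5 contractile and mural genes summed to 94.5 to 204 CPM, most of it Rgs5 (70.3 to 165 CPM). Such sums cover different numbers of genes and are not per length, so they do not compare cell types. The 5 quiescent genes summed to 515 to 931 CPM, most of it Reln and Ecm1.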
